A study of Mus musculus with 4 samples.

Results

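Tac1-positive GABAergic neurons of the mouse BNST (bed nucleus of stria terminalis) were compared with Tac1-negative GABAergic neurons of the same libraries. The BNST is a forebrain region of the extended amygdala, and the data were 4 Drop-seq libraries, a droplet method that tags transcripts by cell and by molecule, so that a UMI (unique molecular identifier) counts 1 captured transcript. All mice were wildtype C57BL/6J males with no treatment, and 6 of them were pooled for each library, so that 24 mice gave n = 4 libraries of a single group. A GABAergic neuron was a barcode with at least 400 genes, at most 10% mitochondrial UMIs, at least 0.6% of UMIs from 5 neuron genes (Snap25, Syt1, Stmn2, Snhg11 and Meg3) and at least 1 UMI of Gad1, Gad2 or Slc32a1. Of 10200 barcodes, 2283 passed. Members were chosen by their Tac1 count: a cell was called Tac1-positive at 2 or more Tac1 UMIs, which held for 249 of the 2283, and each was matched to a cell of the same library without a Tac1 UMI and of nearly the same total UMI count.

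Tac1 encodes the precursor of substance P and neurokinin A, tachykinin peptides that act on G protein-coupled neurokinin receptors, mainly Tacr1 for substance P and Tacr2 for neurokinin A. Tac2 encodes neurokinin B, the preferred ligand of Tacr3. In the striatum, which borders the BNST, Tac1 marks spiny projection neurons of the direct pathway together with the dopamine receptor gene Drd1 and prodynorphin (Pdyn), while spiny neurons of the indirect pathway express Drd2, Adora2a and proenkephalin (Penk). Neurons usually release such peptides together with a fast transmitter, here GABA.

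The 4 tables held 1800 to 3600 barcodes and 2640399 to 5652342 UMIs each. Barcode sequences were shared between libraries in 20 cases over all pairs and in 0 among the GABAergic neurons. Scrublet called 58 of 4239 barcodes doublets (1.37%), of which 3 were Tac1-positive and 2 were matched negatives. The positive and matched negative cells had medians of 4742 and 4716 UMIs, against 3154 in all 1949 cells without a Tac1 UMI. Gad1, through which cells of both groups could be admitted, stood at 689 ± 86.9 CPM (UMIs per 1000000 UMIs of the sum, SD, n = 4) in positive and 662 ± 97.0 in negative sums, and 198 and 201 of the 249 cells had a Gad1 UMI. Snap25, another gene of the rule, was lower in positive sums of each library (1456 ± 154 against 1770 ± 115 CPM), and the ranges of the other rule genes overlapped. Transcripts of oligodendrocytes were high in both groups of library 3, where 12 markers summed to 1543 CPM in positive and 2752 in negative cells, against 177 to 273 in the sums of the other libraries. With cells of 1% or more glial UMIs left out, 94 genes differed between the groups, against 88 with all cells.

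Tac1 itself (chr6:7554879-7565834, plus strand, GRCm38, protein-coding) chose the cells, so its values are a description. Tac1-positive cells were 101 of 721 GABAergic neurons in library 1, 56 of 471 in library 2, 35 of 401 in library 3 and 57 of 690 in library 4, or 14%, 11.9%, 8.73% and 8.26% (mean 10.7% ± 2.72, SD, n = 4). They carried a median of 8, 5, 4 and 4 Tac1 UMIs in the 4 libraries and up to 109, and 94.6% to 97.7% of the Tac1 UMIs of all GABAergic neurons in a library, a share that the threshold largely fixes. Over all 249 cells the median was 5 UMIs (quartiles 3 and 13), 85 cells had 10 or more, and 47 stood at the threshold of 2. With every cell thinned to 1000 UMIs, 10.2% ± 1.74 of GABAergic neurons had a Tac1 UMI, with 12.4%, 10.6%, 9.37% and 8.31% in libraries 1 to 4. The same share was 1.34% ± 1.82 in oligodendrocyte-rich barcodes, which should lack the gene, and 4.05% in those of library 1. Unthinned, 21 of 945 such barcodes had a Tac1 UMI (2.22%, Clopper-Pearson 95% interval 1.38% to 3.38%, median 1391 UMIs) against 14.6% of GABAergic neurons (median 3362 UMIs), and 8 had at least 2. Intervals cover counting error only.

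**Figure D1:**
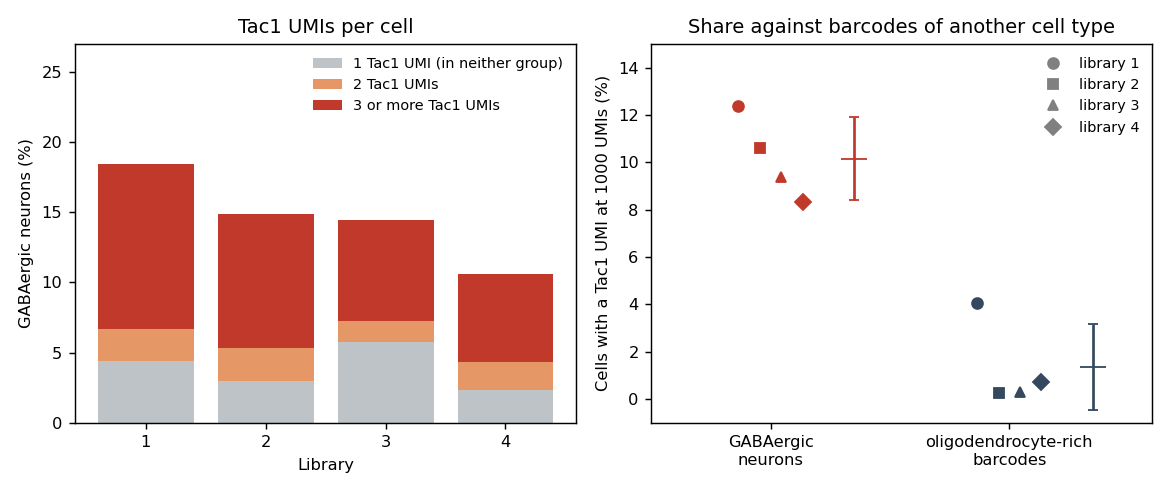
Left, share of GABAergic neurons (%) with 1, 2, or 3 or more Tac1 UMIs in each library, as stacked bars. Right, share of cells (%) with a Tac1 UMI at 1000 UMIs per cell, 1 point per library with the mean and SD beside them, in GABAergic neurons (8.31% to 12.4%) and in oligodendrocyte-rich barcodes, where library 1 is highest at 4.05%.

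Cells just outside and just inside the threshold were set side by side without a test. The 85 cells with exactly 1 Tac1 UMI had 37.0 CPM of Pdyn and 22.8 of Drd1a (the older symbol of Drd1, used in the files), and the 47 cells with exactly 2 had 129 and 59.3. Npy went the other way, with 464 CPM at 1 UMI and 70.1 at 2, as did Sst, with 658 and 43.2. An Npy UMI was nevertheless found in 7.06% of the cells at 1 UMI and 10.6% of those at 2. For Sst these shares were 7.06% (6 cells) and 6.38% (3 cells). Of the genes named below, Cck (293 CPM at 1 UMI and 102 at 2), Zic1 (37.0 and 43.2) and Vamp1 (25.6 and 48.5) differed here in the direction opposite to that of positive against negative cells.

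Beside Tac1, 88 of 5760 genes tested differed between the groups (1.53%), 61 of them higher in Tac1-positive cells (1.06%) and 27 lower (0.469%), in sums of raw UMIs per library and group (edgeR quasi-likelihood test with library as a block, Benjamini-Hochberg adjusted p under 0.05). The direction was the same in 4 of 4 libraries for 77 of the 88. Higher in Tac1-positive cells were peptide precursors (Avp, Gal, Pdyn, Cck, Cartpt, Pnoc), the dopamine receptor Drd1a and genes of spiny projection neurons. Lower were Npy, Sst, Nts, Penk and Vip among peptides, and the transcription factors Zic1 and Six3. Of the 88 calls, 7 passed in DESeq2 (Avp, Pdyn, Crym, Ppp1r1b, Pcp4l1, Arpp21 and Npy), 9 without the library block and 50 genes in all without library 1. On simulated sums edgeR recovered 77.5% of genes changed 2-fold with 7.74% wrong calls, and DESeq2 recovered 38%. The simulation gave every gene the same dispersion, the spread beyond counting error, of 0.00751. Whether the same rates hold for genes with most of their UMIs in a few cells was not tested.

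**Figure D2:**
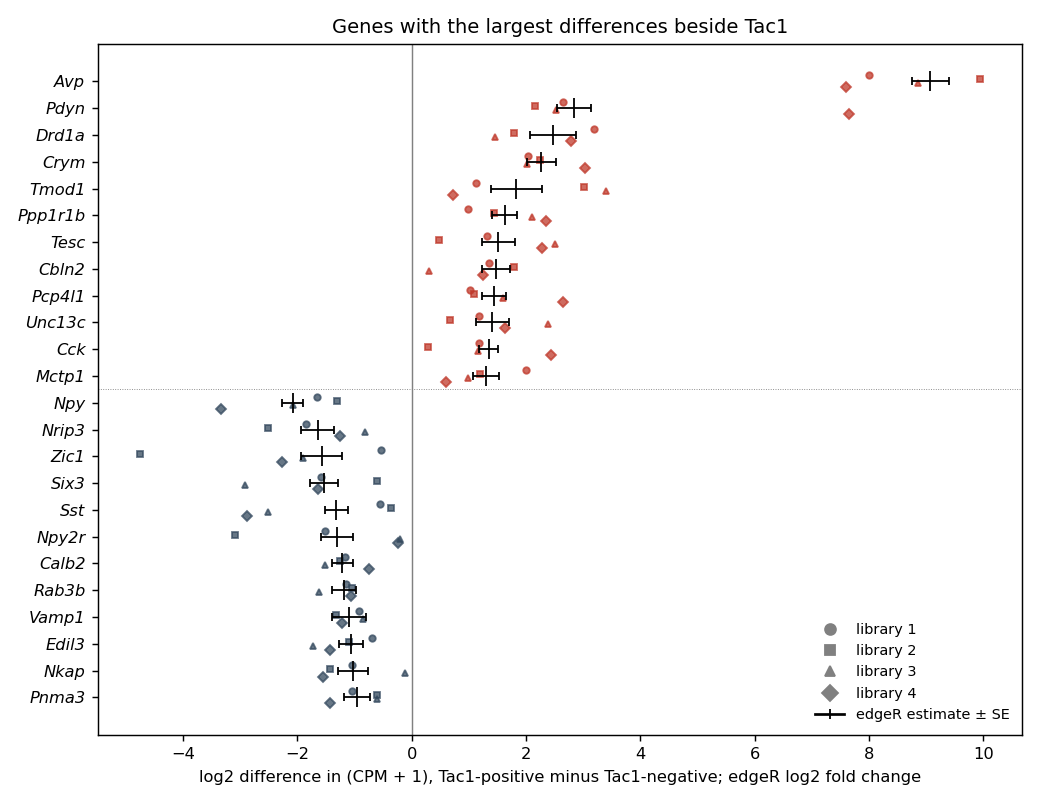
The 12 largest rises and 12 largest falls by log2 fold change among called genes with the same direction in 4 libraries. Points are the log2 difference in CPM + 1 (positive minus negative) of each library, and the black bar is the edgeR log2 fold change ± SE; Avp stands apart at 9.07, and the other rises lie between 1.30 and 2.84.

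Pdyn (chr2:129686565-129699844), the precursor of dynorphins, which act on kappa opioid receptors, had 59, 50, 24 and 40 UMIs in the Tac1-positive sums of libraries 1 to 4 and 9, 11, 4 and 0 in the negative sums. In CPM these were 103, 185, 123 and 199 against 15.7, 40.7, 20.5 and 0. Every positive value lay above every negative one, and Pdyn was 7.18-fold higher (log2 2.84 ± 0.295, SE, edgeR adjusted p = 3.62e-09). A Pdyn UMI was found in 75 of 249 positive and 15 of 249 negative cells, and the 3 highest positive cells held 12.7% of the positive UMIs. The rise was therefore spread over many cells.

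Avp (chr2:130580620-130582554, minus strand), the vasopressin precursor, was nearly confined to Tac1-positive cells in the matched groups. It had 402, 267, 91 and 39 UMIs in the positive sums and 1, 0, 0 and 0 in the negative sums. The ratio of the totals was 799 (95% counting interval 143 to 31608), and edgeR gave an adjusted p of 1.55e-25. The interval takes each UMI as independent and leaves out the spread between cells and libraries. The positive UMIs came from 14 cells (5, 6, 2 and 1 in libraries 1 to 4), of which the highest held 243. The negative UMI came from 1 cell. Over all GABAergic neurons, 15 had 5 or more Avp UMIs, of which 12 were Tac1-positive, 2 had a single Tac1 UMI and 1 had none. Oligodendrocyte-rich barcodes held 1, 0, 1 and 0 Avp UMIs. Gal (chr19:3409915-3414544), the galanin precursor, was found in 13 of the 14 Avp cells and gave 475, 664, 84 and 26 UMIs in the positive sums against 42, 14, 5 and 66 in the negative ones. Gal was higher in 3 of 4 libraries, and in library 4 the order was the other way, where 1 negative cell held 66 UMIs. Its log2 fold change was 3.01 ± 0.364 (edgeR adjusted p = 1.55e-07), and without the cells with an Avp UMI it was -1.12.

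The sequences upstream of Tac1 and Avp are shown because these transcripts were found in the same cells. Each RefSeq promoter window (GRCm38.p6, the 250 bases before the start of transcription) holds the letters CACGTG, an E-box that reads the same on both strands, once. It begins 61 bases before the Tac1 start and 139 bases before the Avp start. For Tac1, 30 bases are shown, at chr6:7554988-7555017 on the plus strand, which lie within an exon of a longer transcript in GENCODE vM21. For Avp, the whole window at chr2:130582589-130582838 on the minus strand is shown, which meets no annotated exon. Capitals mark the E-box.
Tac1: tggggagagtgtCACGTGgctctacaggct
Avp: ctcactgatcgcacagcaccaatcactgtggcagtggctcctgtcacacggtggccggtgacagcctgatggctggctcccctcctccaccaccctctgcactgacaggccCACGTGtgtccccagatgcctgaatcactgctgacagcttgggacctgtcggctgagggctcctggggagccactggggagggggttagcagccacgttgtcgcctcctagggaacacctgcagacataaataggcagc
The letters occur in 6.02% of all 32851 promoter windows of this length in the table. Of the named genes with a window, 2 of 9 that rose hold them (Avp and Cck) and 1 of 9 that fell (Zic1). A match is a description of these letters only.

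The other peptide genes with a rise were Cck, Cartpt and Pnoc. Cartpt (chr13:99898489-99901091), the precursor of the CART peptides, had 1327, 861, 925 and 1003 CPM in positive sums and 656, 566, 517 and 154 in negative ones. The groups did not overlap, and Cartpt was 2.2-fold higher (log2 1.13 ± 0.140, edgeR adjusted p = 2.44e-07), with a UMI in 109 positive and 53 negative cells. Cck (chr9:121489824-121495694), the cholecystokinin precursor, had 420, 103, 751 and 700 CPM against 184, 85.1, 338 and 129 (log2 1.34 ± 0.161, edgeR adjusted p = 1.48e-07). It was higher in each library, with library 2 low in both groups, and the ranges overlapped. Pnoc (chr14:65400673-65425472), whose product nociceptin is the subject of the series, had 298, 288, 281 and 184 CPM against 214, 62.9, 35.8 and 154 (log2 1.07 ± 0.209, edgeR adjusted p = 0.00138). Pnoc was higher in 4 of 4 libraries, with overlapping ranges, and had a UMI in 78 positive and 50 negative cells. Its receptor gene Oprl1 stood at 62.6 ± 12.2 and 56.9 ± 8.40 CPM (adjusted p = 1.0).

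Npy (chr6:49822710-49829507), the neuropeptide Y precursor, had 148, 51.7, 56.2 and 89.4 CPM in positive and 466, 129, 240 and 908 in negative sums (log2 -2.08 ± 0.185, edgeR adjusted p = 6.29e-11). Npy was lower in each library, with ranges that overlapped, but matched within clusters, as described below, the difference turned to 1.43 ± 0.313 (edgeR adjusted p = 0.0143). The 3 highest negative cells held 49.7% of the negative Npy UMIs, and with UMIs capped at 3 per gene and cell the difference was -0.66 and no longer passed. Sst (chr16:23889573-23890958), the somatostatin precursor, had 474, 166, 66.4 and 184 CPM against 698, 215, 384 and 1354 (log2 -1.32 ± 0.201, edgeR adjusted p = 2.76e-05). With the same cap its difference was 0.14, and 37 positive against 33 negative cells had an Sst UMI, with 54.2% of the negative UMIs in 3 cells. Npy and Sst mark interneurons of the medial ganglionic eminence, and both fell while Lhx6, another marker of that lineage, stood at 40.8 ± 11 and 44.4 ± 15.9 CPM (adjusted p = 0.982). Nts, the neurotensin precursor, fell by 1.02 on the log2 scale and Penk by 0.63, each in 3 of 4 libraries (edgeR adjusted p = 0.00374 and 0.0223). Vip had 1 UMI in positive and 30 in negative sums, but these 30 came from 2 cells.

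Of the tachykinin system beside Tac1, Tac2 alone passed the filter on low counts. It had 254, 906, 475 and 810 CPM in positive and 379, 411, 491 and 461 in negative sums (log2 0.34 ± 0.153, edgeR adjusted p = 0.404), higher in 2 libraries and lower in 2. The receptor genes were sparse: Tacr1 had 29 UMIs in positive and 19 in negative sums, and Tacr3 had 6 and 18. Neither passed the filter on low counts. Over the 30 other neuropeptide genes of the list, 28 were in the files and 13 were tested, of which 6 were higher and 5 lower, with a median log2 difference of 0.30 against 9.5e-05 over all genes tested. A positive cell had a UMI of 2.61 listed peptide genes on average and a negative cell of 2.08, with 19 and 35 cells that had none. Granins and processing enzymes moved little, with 2 of 15 higher (Scg2, a granin, and Vgf) and 0 lower (median 0.12), and Pcsk2, a convertase that cleaves prohormones, at 150 ± 22.0 and 110 ± 17.1 CPM (adjusted p = 0.155). Of 5 neuropeptide receptor genes tested, Npy2r, a neuropeptide Y receptor, was lower (log2 -1.31 ± 0.279, edgeR adjusted p = 0.00342).

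Genes shared by spiny projection neurons rose in part. Of 21 tested, 7 were higher, among them Arpp21, Ppp1r1b, Kcnip2, Ptpn5, Foxp1 and Bcl11b, and 0 lower, with a median of 0.61. Ppp1r1b, which encodes DARPP-32, the phosphatase inhibitor downstream of dopamine receptors, had 115, 122, 179 and 333 CPM in positive and 57.4, 44.4, 40.9 and 64.5 in negative sums (log2 1.63 ± 0.220, edgeR adjusted p = 2.25e-06). Arpp21, a cyclic AMP-regulated phosphoprotein, had 1109, 991, 690 and 1212 CPM against 525, 363, 517 and 397 (log2 1.15 ± 0.117, edgeR adjusted p = 2.64e-09). For both genes every positive value lay above every negative one. Drd1a (chr13:54051183-54055705), which encodes the dopamine D1 receptor, had 71.4, 40.7, 71.5 and 74.5 CPM against 6.96, 11.1, 25.6 and 9.92, again without overlap (log2 2.47 ± 0.400, edgeR adjusted p = 8.73e-05), with a UMI in 51 positive and 11 negative cells. Without library 1 its difference was 1.97 and did not pass. Of the direct pathway list, 2 of 5 genes tested were higher (Pdyn and Drd1a, median 0.32). Isl1, a transcription factor of that pathway, was at 85.2 ± 19.9 and 71.2 ± 22.4 CPM (adjusted p = 0.699). Of the indirect pathway list, 1 of 3 was lower (Penk, median -0.63).

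The other named rises were Crym, which encodes a thyroid hormone-binding crystallin (133 ± 41.0 against 25.9 ± 10.2 CPM, log2 2.27), Tmod1, an actin-capping tropomodulin (58.9 ± 39.9 against 14.4 ± 11.1, log2 1.83), Tesc, a calcium-binding protein (log2 1.51), Cbln2, a secreted synaptic organiser (log2 1.47), Pcp4l1 (log2 1.44), Unc13c, a vesicle priming factor (log2 1.41), and Mctp1, a membrane protein with C2 domains (log2 1.30). Their edgeR adjusted p-values ran from 2e-08 (Crym) to 0.0164 (Tmod1). Groups overlapped for Cbln2 and Cck among the 12 rises; without the cells with an Avp UMI, Cbln2 was at 0.20 and did not pass. Among all genes tested, 1.63% had every positive value above every negative one, and 1.63% the reverse. Named falls without overlap were Nrip3 (24.4, 14.8, 46.0 and 34.8 against 90.5, 88.8, 81.8 and 84.3 CPM in libraries 1 to 4), Six3, a homeobox factor (43.7 ± 26.4 against 133 ± 68.9), Rab3b, a vesicle GTPase, Vamp1, a vesicle fusion protein, Edil3, Nkap and Pnma3, with log2 differences from -1.64 (Nrip3) to -0.95 (Pnma3). Zic1, a zinc finger factor, was at 20.4 ± 13.8 and 76.5 ± 51.5 CPM and Calb2, which encodes calretinin, at 81.6 ± 21.7 and 194 ± 74.7, with overlap. Of the genes named, Drd1a, Mctp1, Nrip3, Npy2r, Vamp1, Nkap, Pnma3, Ptpn5, Foxp1, Bcl11b, Prkcb, Hpcal4, Nts, Penk and Gnas did not pass without library 1. Without library 2, Npy2r, Vamp1, Nkap and Prkcb did not, without library 3 Unc13c, Zic1, Vamp1, Vgf, Foxp1, Prkcb and Penk, and without library 4 Zic1, Vamp1, Nkap, Pnma3, Vgf, Foxp1, Bcl11b and Penk. The strand of counting is not given in the sources used here, and Arpp21, Gnas, Mctp1, Nkap, Penk, Ppp1r1b, Ptpn5, Rab3b, Six3, Tmod1, Vamp1 and Zic1 each overlap a gene on the opposite strand.

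Most genes of the remaining lists did not pass. Of 35 regional transcription factors, 2 were higher (Foxp1, Bcl11b) and 2 lower (Six3, Zic1), with a median of 0.11. Of 37 G protein, RGS and cyclic nucleotide genes, Ppp1r1b and Prkcb were higher and Gnas was lower (3002 ± 539 against 3802 ± 724 CPM, lower in 4 of 4 libraries). Of 31 GABA and glutamate receptor subunits, Gria2 was higher (2077 ± 187 against 1618 ± 128 CPM). Of 16 calcium-binding proteins, Hpcal4 was higher and Calb2 lower. The 9 immediate early genes tested gave 0 calls with a median of 0.47, among them Egr1 at 251 ± 156 and 161 ± 73.8 CPM (adjusted p = 0.224). Transmitter genes outside the rule gave 0 of 4, and of 6 receptors for dopamine, serotonin, acetylcholine and cannabinoids 1 was higher, Drd1a. Of 10 genes of the medial ganglionic eminence 2 were lower (median -0.32), and of 6 of the caudal ganglionic eminence 2 were lower (Calb2 and Vip, median -0.35). The glial and vascular lists gave 0 calls among 8 genes tested, and 0 microglial genes could be tested.

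Cyp19a1 encodes aromatase, which makes estrogens from androgens, and was left out by the filter on low counts. It had 9, 11, 9 and 1 UMIs in the positive sums and 0 in all negative ones, in 18 positive cells and 0 of the 249 matched negatives. The 0 is of the matched negatives only and sets no lower bound on the difference. Without the filter Cyp19a1 passed among 15894 genes (edgeR adjusted p = 8.62e-06). The gene was taken up after its values were seen, so this p-value is a description. Over all GABAergic neurons, 7.23% of Tac1-positive cells and 1.39% of the 1949 cells without a Tac1 UMI had a Cyp19a1 UMI, or 24.1 and 4.84 CPM, so the gene was not absent from Tac1-negative neurons. Of the 18 positive cells, 14 had a UMI of Pnoc and 13 of Cartpt. Of the 3 genes of sex steroid signalling tested in the matched groups, 0 passed in edgeR.

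Shares of cells with a UMI were compared at 1000 UMIs per cell in 237 positive and 237 negative cells. Of 48 genes, 9 had a higher share in every library and 10 a lower one. These 48 genes were chosen, and the same count was not made over all genes. The counts of 9 and 10 are therefore a description without a background. Higher were Pdyn (13.9% ± 3.37 against 1.91% ± 1.6), Drd1a (8.67% ± 2.82 against 1.34% ± 0.846), Ppp1r1b (16.1% ± 7.61 against 4.03% ± 0.355), Cartpt (28.8% ± 5.72 against 12.0% ± 3.45), Pnoc (15.2% ± 3.19 against 7.86% ± 3.98), Gal, Avp, Isl1 and Nr2f2. Lower were Npy (4.94% ± 2.07 against 9.52% ± 2.12), Nts (5.84% ± 2.49 against 12.8% ± 4.53), Penk (15.2% ± 5.31 against 21.3% ± 3.9), Six3 (5.10% ± 3.04 against 12.1% ± 5.35), Calb2 (6.37% ± 1.73 against 12.6% ± 4.59), Zic1, Lhx8, Tacr3, Nmb and Slc17a8. Lhx8, Tacr3, Nmb and Slc17a8 had low mean shares, of 3.59% or less in either group. The order did not hold in every library for Nr2f2, Nts and Slc17a8 at 500 UMIs per cell, nor for Nr2f2, Tacr3 and Slc17a8 without thinning. In oligodendrocyte-rich barcodes the same shares were 1.30% for Cartpt, 0.989% for Penk and lower for the other genes with values here. The exact two-sided sign-flip test over 4 libraries cannot go below p = 0.125, and the smallest adjusted p over the 48 genes was 0.316.

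**Figure D3:**
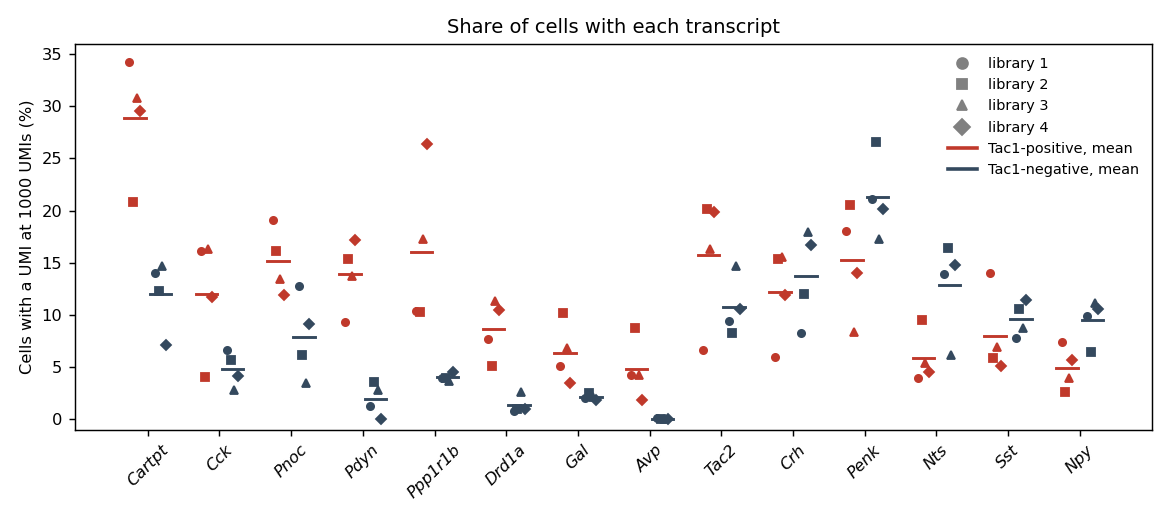
Share of cells (%) with a UMI of each gene at 1000 UMIs per cell, in Tac1-positive (red) and matched Tac1-negative cells (blue), 1 point per library and a line at the mean. Pdyn, Ppp1r1b and Drd1a lie above in every library (13.9% against 1.91% for Pdyn), and Npy, Nts and Penk below.

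Tac1-positive cells were of several kinds. Clusters of all 2283 cells, made without Tac1, numbered 16, and 5 of them held 163 of the 249 positive cells (65.5%) and 30.1% of all cells. They were cluster 11 (leading genes Ppp1r1b and Arpp21, 43 positive of 134 cells, 32.1%), cluster 9 (Crh and Tac2, 31 of 85, 36.5%), cluster 6 (Cck and Fam159b, 34 of 137, 24.8%), cluster 3 (Aldh3b2 and Prox1, 34 of 209, 16.3%) and cluster 0 (Gal and Tac2, 21 of 123, 17.1%). No cluster was made up of Tac1-positive cells alone. The share varied between libraries, from 22.2% (library 3) to 68.8% (library 2) in cluster 9 and from 21.2% to 60.0% in cluster 11, with library 3 lowest and library 2 highest in both, the latter on 16 and 10 cells. In clusters 13, 5 and 15 it was 2.10% to 3.73%. Some transcripts were found together in single positive cells, and examples are given without a test. Of the 51 cells with a Drd1a UMI, 34 also had Pdyn, which 75 of all 249 positive cells had. Of the 31 with Crh, 22 also had Tac2 (40 of all 249). Of the 78 with Pnoc, 49 also had Cartpt (109 of all 249).

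**Figure D4:**
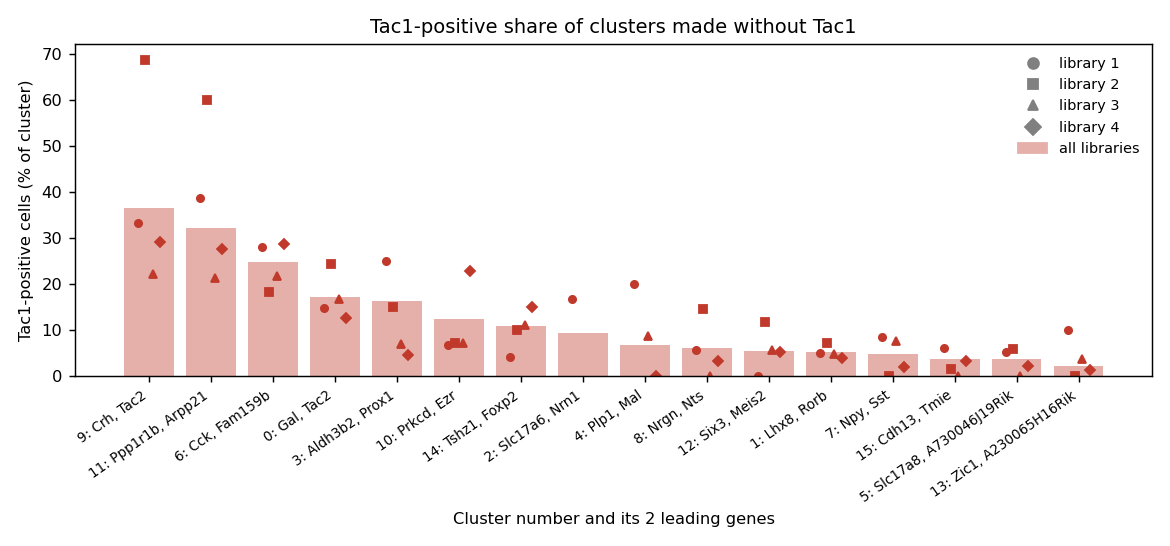
Tac1-positive cells as a share of each cluster (%), clusters ordered by this share and labelled with number and 2 leading genes. Bars are all libraries together and points are single libraries with at least 10 cells in the cluster; clusters 9 and 11 are highest at 36.5% and 32.1%, and library 2 is highest in both.

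Within clusters, Tac1-positive cells were set beside cells without a Tac1 UMI, for the 5 clusters above and without matching on depth, a comparison chosen after the clusters were seen. In cluster 11, Pdyn and Drd1a were higher in Tac1-positive cells of each library, and Penk and Gpr6 were lower. Its 43 positive cells had 422, 377, 451 and 640 CPM of Pdyn in libraries 1 to 4 and its 86 cells without Tac1 had 155, 0, 78.9 and 28.1. Drd1a was at 349, 168, 533 and 362 CPM against 19.4, 0, 52.6 and 14, and 34 positive cells (79.1%) had a UMI against 6 of the others (6.98%). Penk was the reverse, at 1398, 2180, 246 and 334 CPM against 3672, 10130, 4499 and 8467. For these 3 genes the groups did not overlap, but library 2 had only 6 positive cells and 4 cells without Tac1 in this cluster. How many of all genes did not overlap within the cluster was not counted, so this is a description without a background. The positive Penk values of libraries 3 and 4 came from 1 cell each. Gpr6, a receptor of indirect pathway neurons, was at 19.5 ± 22.7 against 157 ± 31.6 CPM. Adora2a, an adenosine receptor gene, and Drd2 were too sparse to compare. Adora2a had 0 UMIs in positive cells and 7 in the others, from 2, 1, 1 and 3 cells of libraries 1 to 4. Drd2 had 0 UMIs in positive cells and 3 in the others, from libraries 1 and 4. Ppp1r1b, the gene that led the cluster, was at 1110 ± 376 and 1208 ± 242 CPM, higher in 2 libraries and lower in 2. Median depth was 3541 and 2721 UMIs. At 1000 UMIs per cell, Drd1a was found in 32.1% and 2.98% of cells and Penk in 20.1% and 75.9%.

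**Figure D5:**
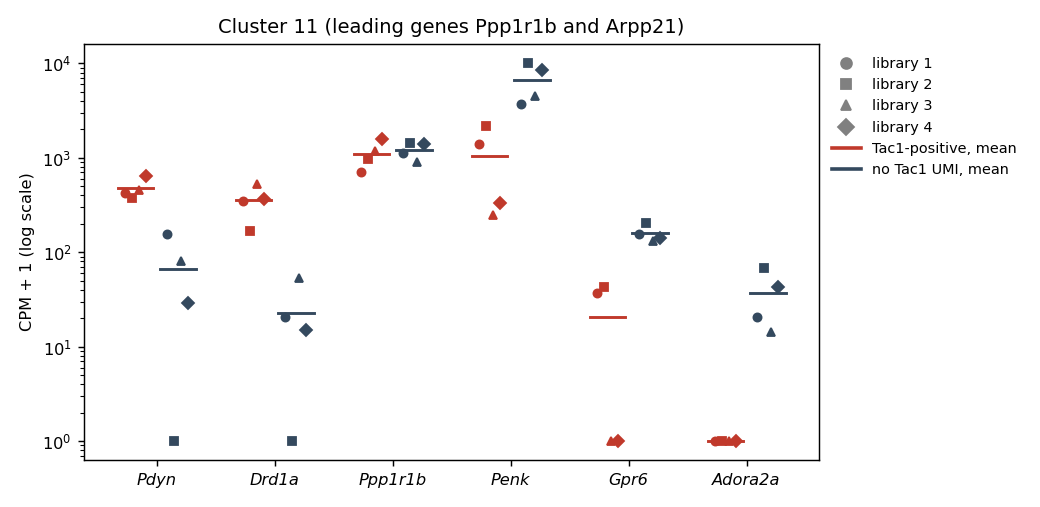
Levels in cluster 11 (CPM + 1, log scale) in Tac1-positive cells (red) and cells without a Tac1 UMI (blue), 1 point per library and a line at the mean. Pdyn and Drd1a are higher and Penk and Gpr6 lower in Tac1-positive cells of every library, and Ppp1r1b overlaps (1110 against 1208 CPM). Adora2a rests on 7 UMIs, all in cells without a Tac1 UMI.

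Peptide genes were set side by side in the same way in the other clusters, and differences between clusters were not tested. Pdyn was higher in Tac1-positive cells of cluster 0 as well (121 ± 70.6 against 5.61 ± 6.95 CPM, in 4 of 4 libraries) and of cluster 9 (349 ± 177 against 159 ± 70.1, in 3 of 4). The cluster 0 values rest on 2, 2, 1 and 1 positive cells with a Pdyn UMI in libraries 1 to 4. In cluster 9, Sst was at 969 ± 922 against 205 ± 238 CPM, higher in each library. An Sst UMI was found there in only 5, 2, 1 and 1 positive cells and 2, 0, 1 and 1 of the others. Tac2 there was at 1946, 4873, 4524 and 4060 CPM in positive cells against 1048, 2194, 835 and 1532, higher in each library, with a UMI in 74.2% and 42.0% of cells. In cluster 0, Tac2 was lower, at 504 ± 406 against 2019 ± 673 CPM, with a UMI in only 4 positive cells. Avp was at 6064 ± 2575 CPM in the 21 positive cells and at 0 UMIs in the 96 cells without a Tac1 UMI. Its UMIs came from 13 positive cells, 5, 6, 1 and 1 in libraries 1 to 4. Cells with a single Tac1 UMI stand in neither group. In cluster 3, Cartpt was at 1989, 1259, 712 and 1177 CPM against 198, 162, 551 and 160, higher in each library. Its positive values rest on 17, 3, 1 and 2 cells with a UMI in libraries 1 to 4. Crh had 0 UMIs in the 34 positive cells there, and 132 in 21 of the 168 cells without Tac1. In cluster 6, Cck was at 1946 ± 1242 and 1333 ± 287 CPM, higher in 3 of 4 libraries. Clusters 3 and 6 each held 20 of the 46 cells with a Cyp19a1 UMI, of which 8 and 9 were Tac1-positive. Over 95 such comparisons the smallest exact sign-flip p was 0.125, the least that 4 libraries allow, and the smallest adjusted p was 0.565. Some groups were of 2 cells in a library (positive cells of clusters 3 and 0).

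With positive and negative cells matched within clusters as well as on depth (213 pairs), 18 genes passed (12 higher, 6 lower). Pdyn (log2 1.43 ± 0.273, edgeR adjusted p = 0.00229), Drd1a (2.30 ± 0.407, 0.000683), Pnoc (1.05 ± 0.173, 0.000260), Gal, Avp, Cbln2, Nrip3 and Penk (-1.29 ± 0.178, 7.62e-06) still passed, and Npy passed in the opposite direction (1.43). The rises of genes shared by spiny neurons did not: Ppp1r1b was at -0.26, Arpp21 at -0.04, Foxp1 at -0.42 and Bcl11b at -0.11. With barcodes of spiny projection neurons left out (162 pairs), Pdyn (2.61), Cck (2.39), Cartpt (1.42), Pnoc (1.15) and Penk (-1.24) passed, and Arpp21 was at -0.21.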

How the data were processed

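Single cells of BNST punches were profiled with Drop-seq in 4 libraries. The authors deposited whole-number UMI counts per gene and barcode for each library (per the file headers, genes by barcodes). Bcl2fastq 2.18.0.12, STAR 2.4.2a, Picard 2.2.4 and the builds mm10 and GRCm38 stand in the submitters' processing notes; their settings, the annotation, the counting strand and the rule for listing barcodes are not given in the sources used here. Members and gene lists were chosen with earlier results of these data known.

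Each Tac1-positive cell was matched within its library to the nearest cell without a Tac1 UMI in log total UMIs, without replacement, within a factor of 1.2, and all 249 found a partner. Raw counts were summed per library and group without Tac1 and compared by the quasi-likelihood F test of edgeR 4.0.16 (R 4.3.3) after filterByExpr and TMM scaling, with library as a block. Genes of the rule were fitted but not counted. Both sums of a library share a pool of mice, and their deviations from the group means correlated at 0.593, 0.348, 0.518 and 0.272 in libraries 1 to 4. The SE was derived as the absolute log2 fold change divided by the root of F. CPM is a gene's UMIs per 1000000 UMIs of its sum, with 1 added before log2. Fixed-depth shares are the expected share of cells with a UMI among 1000 drawn. Clusters came from scanpy 1.11.5 (2000 variable genes without Tac1, 30 components, Leiden resolution 1). Doublets (Scrublet, expected rate 0.05) were left in. Named genes are the 12 largest rises and falls past the threshold with the same direction in 4 libraries and at least 40 UMIs, the tachykinin system, Pnoc, Oprl1 and list members. Symbols were placed on GENCODE vM21, where 18830 of 20136 (93.5%) were found. The test was tested on simulated data (5546 genes). Alternatives were DESeq2 1.42.0 and other filters, thresholds, matching and scaling. Pools are the replicates, and a cell without a Tac1 UMI may still express the gene. Some results are not reported here.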

Additional observations from a re-analysis of the deposited data

Results flagged for a closer look

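The log2 difference of Pdyn between Tac1-positive and Tac1-negative cells was 7.64 in library 4 and 2.16 to 2.64 in the other libraries, since the negative sum of library 4 held 0 Pdyn UMIs. In cluster 10 (leading genes Prkcd and Ezr), 22.7% of the cells of library 4 were Tac1-positive against 6.67% to 7.14% in the other libraries, with 8 positive cells in all. These were the 2 cases among 80 sets of 4 library values in which 1 library stood far from the others, where chance gives about 1 in 20 sets, or 4.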

How the results depend on the processing

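The 88 calls (61 higher, 27 lower) came to 18 (15 and 3) with a mitochondrial limit of 5% (160 pairs), 44 (25 higher) with neuron genes at 1% or more, 52 (40 and 12) with a Tac1 threshold of 1 UMI, 54 (13 lower) at 4 UMIs, 180 (124 and 56) against all cells without Tac1, 18 (12 and 6) matched within cluster, 51 (33 higher) without spiny projection neuron barcodes, 40 (27 and 13) with UMIs capped at 3, an alternative added after seeing the data, and 7 (6 and 1) in DESeq2. With no replicate block 9 passed (7 higher, 2 lower), and the genes tested also changed, to 4847 from 5760. Leaving out 1 library gave 50 to 107 calls (36 to 73 higher, 14 to 34 lower), lowest without library 1. The cause of these changes was not tested, beside the fewer cells or libraries. The higher share of calls was 69.3%, and 83.3% at the 5% limit, 56.8% at the neuron limit of 1% and 85.7% in DESeq2. Avp passed in 21 of 21 and Pdyn in 23 of 23 alternatives in which they were tested, and Drd1a in 18 of 20. Matched within cluster, Ppp1r1b (-0.26), Arpp21 (-0.037), Foxp1 (-0.42), Bcl11b (-0.11) and Npy (1.43) reversed. Without spiny barcodes Arpp21 (-0.21) and Foxp1 (-0.36) did, capped Sst (0.14) did, and without Avp cells, also added later, Gal (-1.12) did. The share of neurons with any Tac1 UMI was 14.6%, and the fullest cluster held 31.3% of positive cells at Leiden resolution 0.5 and 17.3% at resolution 1. Depth limited the test to 5760 genes of 20136.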
